A study of Bos taurus and Bos indicus x Bos taurus with 938 samples.

Results

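The regions described here are 1288 stretches of bovine chromatin that were often open in 2-cell embryos made by in vitro fertilisation (IVF) and rarely open in 8-cell IVF embryos, and they are called the lost regions. They were selected on measured values: among the regions numbered V1 to V274100, each lost region was open in at least 12% of IVF 2-cell blastomeres and in at most 3% of IVF 8-cell blastomeres. Their openness in those 2 groups is therefore the choice itself and carries no test. The lost regions are 0.470% of the numbered regions and 8.94% of the 14414 regions that met the 2-cell limit. The regions carry running numbers only, so no gene, position or sequence can be attached to them.

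The study measured accessible chromatin by ATAC-seq, in which Tn5 transposase cuts DNA that is not shielded by nucleosomes, in single blastomeres (the cells of a cleaving embryo). Embryos came from somatic cell nuclear transfer (SCNT), in which a somatic nucleus replaces that of the oocyte, or from IVF, and SCNT libraries are labelled Bos taurus while IVF libraries are labelled Bos indicus x Bos taurus. The table holds 421 SCNT and 398 IVF blastomeres, and each value is 1 (an open call) or 0, where a missing call can reflect few fragments as well as closed chromatin. All SCNT embryos carry title prefixes 15243 or 15244 and all IVF embryos 15286 or 15287, so type, prefix and organism label cannot be told apart. Columns were tied to libraries by their numbering, an inference on which every stage and embryo named here rests.

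SCNT blastomeres at 2, 4, 5 to 7, 8 and 12 to 16 cells came from 43, 25, 13, 21 and 6 embryos. The other 3 SCNT blastomeres, 2 labelled 3-cell and 1 labelled 1-cell, were too few for a group and enter values over all 421 SCNT blastomeres only. IVF blastomeres at 2, 3, 4, 5 to 7, 8 and 13 to 16 cells came from 67, 6, 22, 10, 14 and 3 embryos. Median open calls per blastomere ran from 3484 in SCNT 2-cell to 12560.5 in SCNT 12-16-cell embryos, and from 4350.5 in IVF 3-cell to 20535 in IVF 13-16-cell embryos. The group of 64 IVF 2-cell embryos with prefix 15286 supplied 95.2% of the 2-cell calls in the lost regions, while every IVF 8-cell embryo has prefix 15287. Stage and prefix are thus largely joined in the choice. At least 1 whole block of the numbering (a run of regions open together in the same blastomeres) held almost no calls in 53.5%, 27.8%, 38.7%, 37.9%, 20.4% and 13.3% of IVF blastomeres at 2, 3, 4, 5 to 7, 8 and 13 to 16 cells. Among SCNT blastomeres this held for 3 of 71 at 2 cells, 4 of 77 at 4 cells and 0 at later stages.

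After fertilisation the early embryo runs on RNA and protein stored in the oocyte, and its own genome is silent or nearly so. Transcription from the embryo's own genome starts in earnest a few cleavages later, in cattle near the 8-cell stage, and accessibility is reorganised over the same period. In SCNT the same cytoplasm has to reset a nucleus that had a somatic chromatin state. Regions accessible before activation and closed after it are one side of that reorganisation.

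The 1288 lost regions were open in a narrow band of blastomeres at the 2-cell stage. The limits amount to calls in at least 16 IVF 2-cell and at most 3 IVF 8-cell blastomeres. At 2 cells the lost regions were open in 12.4% to 22.5% of IVF blastomeres (median 13.2%), and each was open in 12 to 27 of the 67 embryos (median 17). At 8 cells, 83 had no call, 426 had 2 and the rest had 1 or 3. The other 13126 regions that met the 2-cell limit, called the other early-open regions, reached 100% at that stage. Many lost regions sat at the limits, with 443 at exactly 16 calls at 2 cells. Their mean openness relative to all regions was 1.45 in SCNT 8-cell and 1.62 in IVF 4-cell blastomeres, against 1.32 and 1.44 for regions with 1 call fewer. Lost regions with exactly 3 calls at 8 cells had 1.74 in SCNT 8-cell and 1.84 in IVF 4-cell blastomeres, against 1.91 and 1.98 for regions with 1 call more.

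In the groups that the choice did not use, the lost regions stood between their IVF 2-cell and IVF 8-cell levels. Regions chosen for a high and a low level tend to lie between them elsewhere, so this position is not a result. Depth also differs between groups, so each level is given beside the average over all regions. In SCNT blastomeres a lost region was open on average in 4.47%, 3.87%, 5.07%, 3.68% and 3.61% of cells at 2, 4, 5 to 7, 8 and 12 to 16 cells. The average over all regions was 2.01%, 2.00%, 2.94%, 2.26% and 3.90%. In IVF blastomeres a lost region was open in 6.44% of cells at 3 cells, 6.96% at 4 cells, 4.35% at 5 to 7 cells and 4.78% at 13 to 16 cells. All regions averaged 2.82%, 4.02%, 4.22% and 5.11% there. The mean of the lost regions was above that of all regions up to 8 cells in SCNT and up to 5 to 7 cells in IVF. It was 1.03 times that mean in IVF 5-7-cell blastomeres, and 0.926 and 0.935 times in SCNT 12-16-cell and IVF 13-16-cell blastomeres. These values pool blastomeres over embryos. Most of the 15 IVF 13-16-cell blastomeres came from 1 embryo, with 0.642 over 11 blastomeres, while another had 2.64 over 3. The other early-open regions had means of 7.80%, 9.05%, 13.1%, 10.8% and 20.6% over the 5 SCNT stages, and of 16.2%, 19.2% and 23.1% at 4, 5 to 7 and 13 to 16 cells in IVF.

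**Figure D1:**
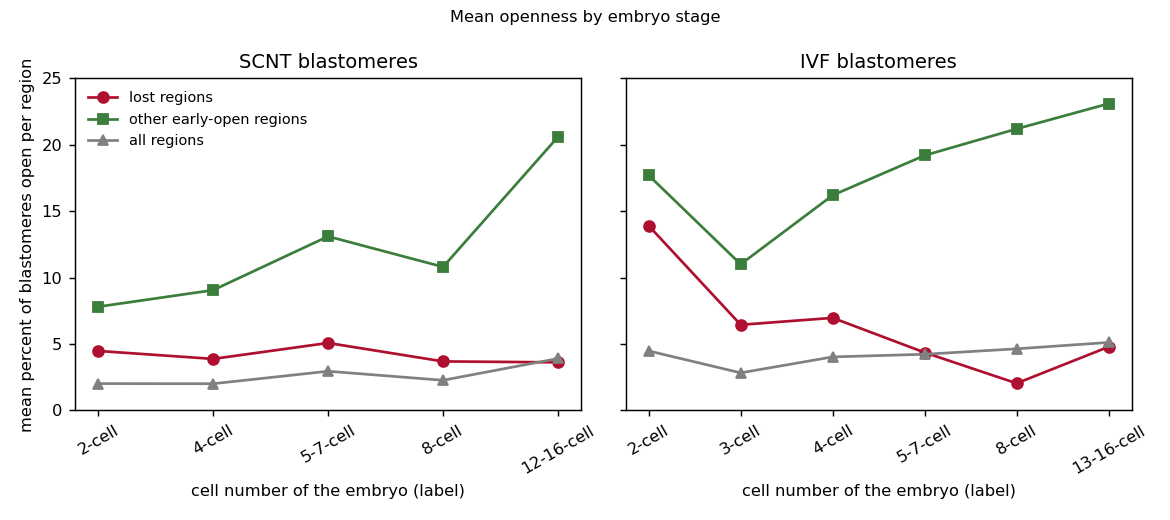
Mean percent of blastomeres in which a region was open (y axis) by labelled cell number (x axis), for SCNT blastomeres at left and IVF blastomeres at right. Red circles are the 1288 lost regions, green squares the 13126 other early-open regions and grey triangles all regions. The IVF 8-cell and 2-cell points of the lost regions, 2.03% and 13.9%, are the selection itself.

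Because blastomeres differ in depth, each embryo was given a relative openness: the percent of lost regions open in its blastomeres divided by the percent of all regions V1 to V274100 open in them. A value of 1 means that the lost regions were as open as the average region. Embryos with at least 1000 calls entered, and no test is given for this value because it runs over regions that were chosen. In SCNT embryos relative openness was 2.08 ± 0.487 at 2 cells (SD, n = 40), 2.05 ± 0.315 at 4 cells (SD, n = 24) and 1.72 at 5 to 7 cells (range 1.34 to 2.08, n = 13). It was 1.66 ± 0.450 at 8 cells (SD, n = 21) and 0.858 ± 0.459 at 12 to 16 cells (SD, n = 6). In IVF embryos it was 2.09 ± 0.452 at 3 cells (SD, n = 6), 1.90 ± 0.738 at 4 cells (SD, n = 21) and 1.34 ± 0.865 at 5 to 7 cells (SD, n = 10). The embryos that set the choice had 0.545 ± 0.370 at IVF 8 cells (SD, n = 14) and 3.30 ± 0.538 at IVF 2 cells (SD, n = 66), of which 3 embryos of prefix 15287 had 3.83 ± 0.464 (SD, n = 3). Without blastomeres lacking a block the means were 1.67 at IVF 4 cells (n = 18) and 1.36 at IVF 5 to 7 cells (n = 9).

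**Figure D2:**
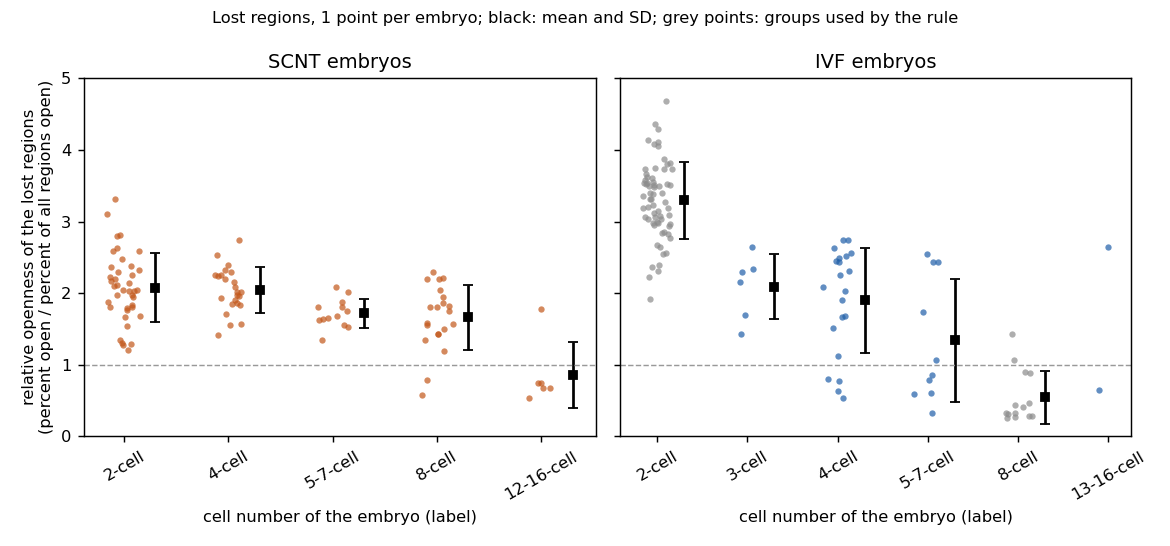
Relative openness of the lost regions (y axis) by labelled cell number (x axis), with 1 point per embryo, SCNT at left and IVF at right. Black squares and bars are the mean and SD of groups with more than 2 embryos, grey points are the IVF groups used for the choice, and the dashed line at 1 is the average region. All 77 SCNT 2-, 4- and 5-7-cell embryos lie above the line, while IVF 5-7-cell embryos lie on both sides of it.

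Relative openness above 1 was found in nearly all SCNT embryos up to the 8-cell stage. All 40 SCNT 2-cell, 24 SCNT 4-cell and 13 SCNT 5-7-cell embryos had a value above 1, as did 19 of 21 SCNT 8-cell embryos. Among IVF embryos, 17 of 21 at 4 cells and 5 of 10 at 5 to 7 cells did. Both SCNT 8-cell embryos below 1 have prefix 15244. The SCNT 8-cell mean was below the SCNT 2-cell mean in both prefixes. Prefix 15243 had 1.63 ± 0.268 at 8 cells (SD, n = 12) and 2.07 ± 0.441 at 2 cells (SD, n = 30). Prefix 15244 had 1.70 ± 0.636 at 8 cells (SD, n = 9) and 2.11 ± 0.632 at 2 cells (SD, n = 10). The ranges of the stages overlapped in both.

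In IVF the 5-7-cell and 4-cell values differed less within 1 prefix than over all embryos. All 5-7-cell embryos have prefix 15287, with 1.34 ± 0.865 (SD, n = 10). The 4-cell embryos of that prefix had 1.54 ± 0.868 (SD, n = 5), against 2.01 ± 0.686 (SD, n = 16) in prefix 15286. The difference between the stages within prefix 15287 was smaller than the SD of either group. This also held over all embryos, where the 4-cell value was 1.90 ± 0.738 (SD, n = 21).

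The wide SD of the IVF 5-7-cell group came from embryos at opposite ends of the scale. Of the 10 embryos, 5 had a relative openness of 0.330, 0.593, 0.604, 0.790 and 0.858, and 5 had 1.06, 1.73, 2.44, 2.44 and 2.54. Both 5-cell embryos (1.73 and 2.44) were among the higher values and both 7-cell embryos (0.330 and 0.858) among the lower ones, while the 6 embryos with 6 cells spanned 0.593 to 2.54. Depth moved with these values. The 5 embryos below 1 had 62706 to 192487 calls and the 5 above 1 had 16687 to 86023. With every blastomere thinned to 1000 calls, the first 5 gave 0.405, 0.699, 0.265, 1.02 and 0.913, and the others, in the same order as before, 1.12, 2.04, 2.28, 1.99 and 2.43.

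IVF 4-cell embryos also lay on both sides of 1, with fewer low values. The lowest 4 were 0.537, 0.629, 0.768 and 0.796. They came from both prefixes, had 38942 to 108030 calls, and had 0.755, 0.770, 0.897 and 0.701 after thinning. The median embryo had 2.09 and the highest 2.74. At 13 to 16 cells, where 1 of 3 embryos had under 1000 calls, the 13-cell IVF embryo had 0.642 over 11 blastomeres and the 16-cell IVF embryo had 2.64 over 3 blastomeres.

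In SCNT 8- and 12-16-cell and in IVF 3-, 4-, 5-7- and 13-16-cell embryos, sister blastomeres varied less than embryo means did. In IVF 5-7-cell embryos the SD of blastomeres within embryos was 0.393, and that between embryo means was 0.816. The corresponding values were 0.262 and 0.436 in SCNT 12-16-cell, 0.349 and 0.438 in SCNT 8-cell, 0.533 and 0.574 in IVF 3-cell, and 0.488 and 0.696 in IVF 4-cell embryos. They were 0.364 and 1.29 in IVF 13-16-cell embryos, where only 2 embryos entered. In the IVF 7-cell embryo with the lowest value all 7 blastomeres lay between 0.180 and 0.479, and in a 6-cell embryo with 2.44 all 5 lay between 2.00 and 2.96. SCNT embryos at 2, 4 and 5 to 7 cells did not show this, with 0.595 within and 0.542 between embryos at 2 cells, 0.509 and 0.328 at 4 cells, and 0.301 and 0.193 at 5 to 7 cells. An embryo mean averages at least 2 blastomeres, so the within and between values are not on the same scale. Median calls were lowest in SCNT 2-cell, SCNT 4-cell and IVF 3-cell blastomeres (3484, 4330 and 4350.5). The part of depth in these SDs was not tested.

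A set chosen the opposite way stood on the other side of 1 in most embryos. The mirrored rule, open in at least 12% of IVF 8-cell and at most 3% of IVF 2-cell blastomeres, gave 2970 regions. Both sets come from the same contrast and share a denominator, so values in the 2 chosen groups say nothing new. By its rule no mirrored region met the 2-cell limit of the lost regions. All regions that did not meet it averaged 0.783 to 0.848 in blastomeres of the groups not used. A value below 1 is therefore not particular to the mirrored set. In the groups not used, 120 embryos had the lost regions above 1 and the mirrored set at or below 1, and 17 had the reverse. The remaining 6 had both above 1, with lost-region values of 1.06 to 1.79, and 0 had neither. Of the 17, 4 were IVF 4-cell, 5 IVF 5-7-cell, 1 IVF 13-16-cell, 2 SCNT 8-cell and 5 SCNT 12-16-cell embryos. The SCNT 8-cell embryos had 0.570 and 0.785 for the lost regions and 3.87 and 3.64 for the mirrored set. The 5 SCNT 12-16-cell embryos had 0.529, 0.670, 0.671, 0.749 and 0.750 for the lost regions, and 2.91 to 4.73 for the mirrored set. The other SCNT embryo of that group, with 16 cells, had 1.78 and 0.475, and all 14 of its blastomeres lay between 1.16 and 2.02 for the lost regions.

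**Figure D3:**
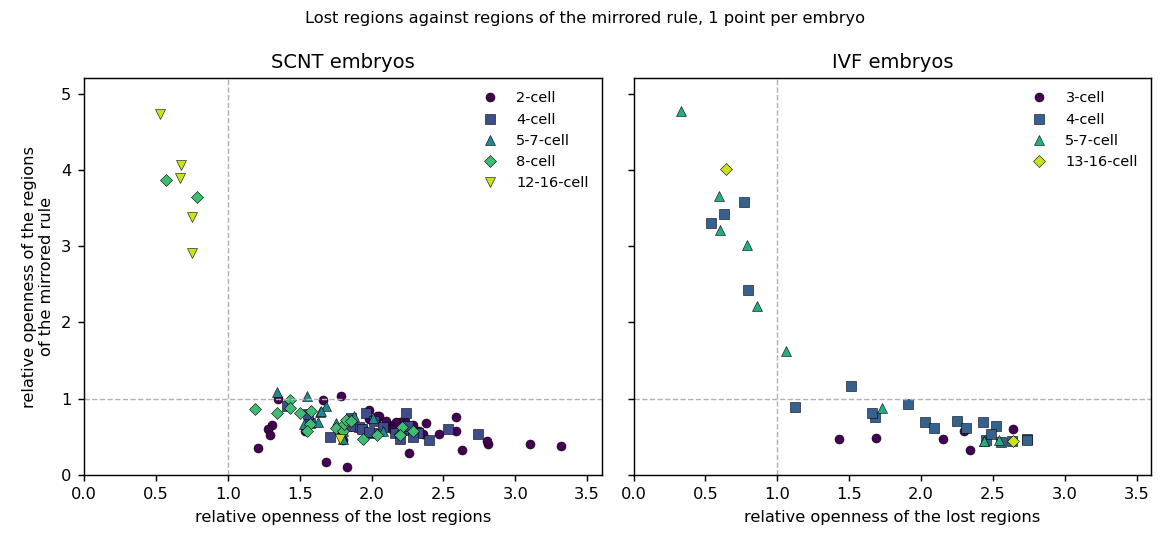
Relative openness of the regions of the mirrored rule (y axis) against that of the lost regions (x axis), with 1 point per embryo, SCNT at left and IVF at right, for groups not used in the choice. The dashed lines mark the average region. At the upper left lie 17 embryos and at the lower right 120, and embryos of the same labelled cell number appear in both places.

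The other early-open regions were above the average region in every embryo of these groups. Their relative openness ran from 4.26 to 6.17 in SCNT 12-16-cell and from 3.38 to 5.91 in IVF 5-7-cell embryos. Taken over the other early-open regions in place of all regions, the openness of the lost regions had means of 0.493, 0.431, 0.383, 0.363 and 0.158 over the 5 SCNT stages. The IVF means were 0.449, 0.432, 0.281 and 0.361 at 3, 4, 5 to 7 and 13 to 16 cells. In SCNT at 8 cells, embryo 52 stood apart, with 1.45 for the other early-open regions. Without it the SCNT 8-cell mean of the lost regions was 1.68.

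Region by region, the share of lost regions that were less open at the later stage was above that of all regions. Scaled to the average region of each group, 78.2% of the lost regions with a call in either group were less open in IVF 5-7-cell than in IVF 4-cell blastomeres, against 53.2% of all regions. For SCNT 12-16-cell against SCNT 8-cell blastomeres it was 956 of 1277 (74.9%), against 142279 of 254261 regions in all. For SCNT 8-cell against SCNT 2-cell it was 825 of 1285 (64.2%), against 49.6%. Between types, the low IVF 8-cell level that the rule required can favour SCNT over IVF 5-7-cell blastomeres. There 402 of 1272 (31.6%) were less open in SCNT 5-7-cell than in IVF 5-7-cell blastomeres, against 47.9% of all regions. At 4 cells it was 51.9%, against 58.6% of all regions and 49.2% of the other early-open regions. Among regions that entered the test below, under its own scaling, it was 40.0% of the lost regions, against 50.0% of all. Of the 1288, 497 (38.6%) were above average in all 4 SCNT groups with 2 to 8 cells and 37 (2.87%) in none, against 10.8% and 33.4% of all regions. In IVF, 494 (38.4%) were above average at 4 cells but not at 5 to 7, 438 at both, 9.16% of lost regions at 5 to 7 cells only and 18.5% at neither. Of all regions, 10.9% were above average at 4 cells only, 17.8% at both, 11.9% at 5 to 7 cells only and 59.4% at neither. Every lost region had a call in some SCNT blastomere, with a median of 3.80% of SCNT cells, and 3 (0.233%) reached 12%. Of all regions, only 2883 had no SCNT call, so a call in some SCNT blastomere is not particular to the lost regions. The median over all regions was 1.66% of SCNT cells, and 2.19% of them reached 12%, a larger share than among the lost regions.

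Single regions rest on few calls, and no lost region passed a test on its own. Each comparison was a two-sided score test per region over embryos, moderated with limma and bounded by an exact binomial p, with Benjamini-Hochberg adjustment over all regions tested. A region needed a call in at least 10% of the embryos compared. A lost region could thus enter through the group in which it was more open, so the counts below describe those that entered and not all 1288.

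For IVF 5-7-cell against IVF 4-cell embryos (n = 10 and 21), 89.7% of the lost regions entered and 0 had an adjusted p under 0.05, as for all 143888 regions tested (0%). At an unadjusted p under 0.05, 37 lost regions (3.20%) were lower and 0 higher, where 0.815% of all tested regions were lower and 1.55% higher. The median log2 ratio of observed over expected calls was -0.73 for the lost regions and -0.09 for all. Within prefix 15287 (n = 10 and 5), 2 were lower at that level (0.177%, against 0.115% of all), and the medians were -0.14 and 0.03. Under scaling by commonly open regions, 77 lost regions were lower and 0 higher, where 2.18% and 0.623% of all were. Without blastomeres lacking a block (n = 9 and 18), 3 lost regions were lower (0.468%, against 0.338% of all), and the medians were -0.49 and 0.11. The lowest p was that of V95628, which had 0 calls at 5 to 7 cells and 11 at 4 cells (unadjusted p = 0.00529, adjusted p = 1.00, score test moderated with limma).

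For SCNT 8-cell against SCNT 2-cell embryos (n = 21 and 40), 56.6% of the lost regions entered and 0 passed, as for all 54200 (0%). At an unadjusted p under 0.05, 50 (6.86%) were lower and 1 higher, where 1.73% of all were lower and 1.92% higher. The median log2 ratios were -0.50 and 0.09. Within prefix 15243 (n = 12 and 30), 25 were lower (3.88%, against 1.44% of all), and within prefix 15244 (n = 9 and 10), 18 of 941 were (1.91%, against 1.56%). Under scaling by commonly open regions, 14.7% of the lost regions were lower and 0 higher, where 5.21% and 0.566% of all were. V260389 had the lowest p, with 0 calls at 8 cells and 8 at 2 cells where 5.62 and 2.38 were expected (unadjusted p = 0.000124, adjusted p = 1.00, score test moderated with limma and bounded by an exact binomial p).

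The other SCNT stage comparisons were nearer the background. For SCNT 8-cell against SCNT 4-cell embryos (n = 21 and 24), 964 entered and 0 passed, as for all regions tested (0%). At an unadjusted p under 0.05, 16 were lower (1.66%) and 4 higher (0.415%), where 1.03% and 0.931% of all were. Under scaling by commonly open regions, 35 were lower and 2 higher, where 2.74% and 0.355% of all were. For SCNT 4-cell against SCNT 2-cell embryos (n = 24 and 40), 480 entered and 0 passed, as for all (0%). There 5 were lower (1.04%) and 4 higher (0.833%), where 0.629% and 1.65% of all were. Under scaling by commonly open regions, 7 were lower and 0 higher, where 1.35% and 0.763% of all were.

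Between types, the lost regions leaned towards SCNT at 5 to 7 cells, but the choice itself favours this direction. The rule required few calls in IVF 8-cell blastomeres, which share type, organism label and prefix 15287 with all IVF 5-7-cell blastomeres. How much of the contrast follows from the choice was not tested, so the counts are a description. For SCNT 5-7-cell against IVF 5-7-cell embryos (n = 13 and 10), 83.2% entered and 0 passed, where 0.0100% of all regions tested did. At an unadjusted p under 0.05, 64 (5.98%) were higher and 1 lower, where 3.10% of all were higher and 3.18% lower. The median log2 ratios were 0.94 and -0.04. Under scaling by commonly open regions, 11.9% were higher and 0 lower, where 6.37% and 1.54% of all were. Without blastomeres lacking a block (n = 13 and 9), 29 were higher (3.11%, against 2.00% of all), and the medians were 0.96 and 0.11. V200375 had 14 calls in SCNT and 0 in IVF 5-7-cell embryos (unadjusted p = 0.000818, adjusted p = 0.323, score test moderated with limma). For SCNT 4-cell against IVF 4-cell embryos (n = 24 and 21), 81.8% entered and 0 passed, where 0.00206% of all did. There 23 (2.18%) were higher and 3 (0.285%) lower, where 2.32% of all were higher and 1.68% lower, with median log2 ratios of 0.22 and 0.01. Without blastomeres lacking a block (n = 23 and 18), 21 were higher (4.70%, against 2.16% of all) and 0 lower, and the medians were 0.72 and -0.02. V109759 had the lowest p, with 16 and 6 calls (log2 ratio 2.31 ± 0.73 SE, adjusted p = 0.385, score test moderated with limma and bounded by an exact binomial p). No within-prefix value exists for comparisons between types.

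For IVF 4-cell embryos of prefix 15287 against those of prefix 15286 (n = 5 and 16), 1100 entered and 0 passed, as for all (0%). At an unadjusted p under 0.05, 3 were lower and 0 higher, where 0.0869% of all were lower and 0.384% higher. Leaving out 1 embryo of prefix 15287 at a time gave 0 to 3 lower (at most 0.244%) and 0 to 2 higher (at most 0.172%). Of all regions, 0.00292% to 0.0605% were lower and 0.0653% to 0.583% higher in those runs. Without blastomeres lacking a block 0 lost regions were lower or higher, where 0.0837% of all were lower and 0.0691% higher. The test had little power for single regions. In simulated calls for SCNT 8-cell against SCNT 2-cell embryos it called 41 of 50 regions raised 16-fold, 1 of 50 raised 4-fold, and 1 of 20 reduced to 0.25 of their level. For IVF 5-7-cell against IVF 4-cell embryos it called, in the same order, 32 of 50, 1 of 50, 0 of 42 and 0 of 34. These counts cover regions that entered the test, and fewer of the reduced than of the raised regions did. A count of 0 here therefore says little about single lost regions.

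Individual lost regions followed the group pattern loosely. V199435 had the widest gap between the chosen groups, with calls in 29 IVF 2-cell blastomeres (22.5%, 27 embryos). It was open in 7 of 75 IVF 4-cell and 7 of 58 IVF 5-7-cell blastomeres, and in 25 of 421 SCNT blastomeres (5.94%). V33326, V106340, V112865 and V256842 followed, each with 25 calls at IVF 2 cells and 0 at IVF 8 cells. Their 4-cell IVF openness was 9.33%, 8.00%, 4.00% and 2.67%.

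V171065 was the most open lost region at the IVF 4-cell stage, in 15 of 75 blastomeres (20.0%) from 13 embryos. Next came V78631 and V83538 with 14 calls each, and V44371 and V101579 with 13. V78631 and V101579 then had 2 calls each among 58 IVF 5-7-cell blastomeres, while V171065, V83538 and V44371 had 8, 7 and 8. At the other end, of the 50 regions with the widest gap, V57737, V64220, V167619, V244851 and V256842 had 2 calls each at 4 cells. V64220 had 0 at 5 to 7 cells and V244851 had 8 in all 421 SCNT blastomeres (1.90%).

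V60938 and V111089 were the most open at the IVF 5-7-cell stage, in 10 of 58 blastomeres (17.2%) from 5 and 6 embryos. V153715 and V180708 had 9 calls each and V16861 had 8. All 5 had 2 or 3 calls at IVF 8 cells and 18 to 27 calls at IVF 2 cells.

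V109759 was the most open in SCNT, in 69 of 421 blastomeres (16.4%). Its calls were 12, 16, 12, 20 and 9 at 2, 4, 5 to 7, 8 and 12 to 16 cells, from 11, 11, 6, 14 and 4 embryos. V14884 and V228855 had 51 SCNT calls each (12.1%), V200375 had 50 (11.9%) and V266959 had 49 (11.6%). V200375 had 14 calls in 61 SCNT 5-7-cell and 18 in SCNT 8-cell blastomeres, against 0 in 58 IVF 5-7-cell and 0 in IVF 8-cell blastomeres. Those 0 counts come from 10 and 14 embryos, and V200375 was named for its SCNT level, so the contrast is a description. The rule also required at most 3 calls at IVF 8 cells, so the low IVF 8-cell count is the choice itself.

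The lost regions occurred throughout the numbering, though not evenly. They occurred in all 29 blocks into which the numbering falls, at 1.62 to 9.18 per 1000 regions, with 4.70 per 1000 overall. The next number was also a lost region in 24 cases (1.86%), where lost regions are 0.470% of all. The longest step between lost regions was 3686 numbers. Of 274 runs of 1000 regions, 17 held no lost region, the median run held 4 and the highest 16. In each of the 29 blocks the lost regions were more open than the block's average region in IVF 4-cell blastomeres (1.39 to 2.21) and in SCNT 2-cell blastomeres (1.59 to 3.12). In SCNT 8-cell blastomeres this held in 28 blocks, and in IVF 5-7-cell blastomeres in 17 (0.547 to 1.45).

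Regions next to a lost region in the numbering were also lower at later stages. Taking only neighbours that were not early-open themselves (2280 regions 1 step away), openness relative to all regions was 1.06, 0.920, 0.836, 0.824 and 0.566 over the 5 SCNT stages. In IVF it was 1.27 at 3 cells, 0.969 at 4, 0.653 at 5 to 7 and 0.638 at 13 to 16 cells. At 50 steps the values lay between 0.766 and 0.875 over these SCNT and IVF groups, near the 0.783 to 0.848 of all regions that were not early-open. Neighbours of the other early-open regions had 0.917 to 1.15 at 1 step in the same groups.

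**Figure D4:**
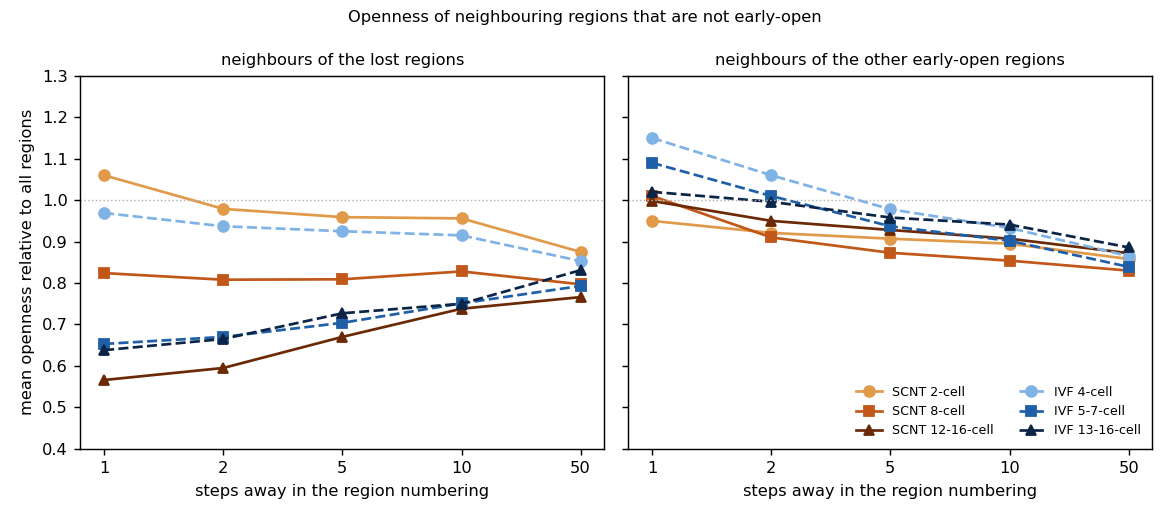
Mean openness, relative to all regions, of neighbours that were not early-open (y axis) by steps in the region numbering (x axis, not to scale), around the lost regions at left and the other early-open regions at right. Solid lines are SCNT 2-, 8- and 12-16-cell and dashed lines IVF 4-, 5-7- and 13-16-cell blastomeres. At 1 step the values span 0.566 to 1.06 beside the lost regions and 0.950 to 1.15 beside the other early-open regions, and at 50 steps 0.766 to 0.875 beside the lost regions.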

How the data were processed

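Single-blastomere ATAC-seq libraries were read as the authors deposited them: per the file headers, 302830 numbered regions by 819 columns whose values are 0 or 1, in a unit of no other name, taken as closed or open calls. FastQC 0.10.1, Bowtie2 2.2.6 and bedtools are listed in the submitters' processing notes. Neither the genome build nor the calling rule is given in the sources used here, and depth in reads is unknown. Columns were tied to libraries by numbering, with offsets of 0, 499, 1000 and 1500 for title prefixes 15243, 15244, 15286 and 15287. That link is an inference stated nowhere, and every stage and embryo here rests on it. No column was tied to 119 of the 938 labelled libraries, which are not analysed here.

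Embryos served as replicates, and nothing states that embryos came from separate fertilisation or transfer rounds, so spreads may be partly technical. Embryo number 587 occurs at 4 and 6 cells under different prefixes and was taken as 2 embryos. Embryo number 551 has 3 blastomeres labelled 3-cell and 1 labelled 4-cell under 1 prefix and was kept in both groups, as labelled; without it the means are 2.23 at IVF 3 cells and 1.86 at IVF 4 cells, an alternative chosen after seeing the data. Embryos with under 1000 calls were left out of embryo values and tests. The chance of a call followed a complementary log-log form, with a factor for each blastomere and each region. Dispersions were moderated with limma 3.58.1 in R 4.3.3, and the larger of the score p and an exact binomial p was adjusted by Benjamini-Hochberg at 0.05. Other values used Python 3.11.15, numpy 2.4.6, scipy 1.17.1 and pandas 2.3.3. Among simulated unchanged regions, the unadjusted p fell under 0.05 in 1.00% and 1.37% for IVF 5-7-cell against 4-cell and SCNT 8-cell against 2-cell embryos, and 0 were called. Named regions are the 5 with the widest gap between chosen groups, the 5 most open at IVF 4 cells, the 5 least open there among the 50 widest gaps, the 5 most open at IVF 5 to 7 cells, the 5 most open in SCNT, and any called; the lowest-p region of a comparison was named after its values were seen. The regions and lists were chosen with earlier results of these data known.

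Alternatives covered the limits of the rule, the denominator, depth and thinning, blastomeres lacking a block, title prefix, the filter, the scaling and the p-value.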

Additional observations from a re-analysis of the deposited data

Results flagged for a closer look

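In SCNT 12-16-cell embryos 1 of 6 stood far from the rest, with a relative openness of the lost regions of 1.78 (the embryo labelled 16-cell), where the next highest was 0.750. Of 3 groups of 4 to 10 embryos examined for such a value, 1 had one, and chance gives about 1 in 20 such groups. All 14 of its blastomeres lay above 1, and its value was 1.70 with each blastomere thinned to 1000 calls.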

How the results depend on the processing

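The number of lost regions depends on the limits: where 0.470% of regions met the rule, 0.0890% did with a 2-cell minimum of 15%, 0.276% with an 8-cell maximum of 2%, 0.303% with shares of embryos (803 of them among the 1288), and 0.109% without blastomeres lacking a block (170 among the 1288). Taken over the other early-open regions, relative openness was on another scale by construction: 0.449, 0.432 and 0.281 at 3, 4 and 5 to 7 cells in IVF, and 0.493, 0.431, 0.383, 0.363 and 0.158 over the 5 SCNT stages. A 2-cell minimum of 15% moved IVF 3-cell to 2.62, SCNT 4-cell to 2.58 and SCNT 5-7-cell embryos to 2.12, and regions chosen without blastomeres lacking a block, an alternative chosen after seeing the data, moved IVF 3-cell embryos to 2.60. Causes were not tested. Leaving out each embryo in turn gave 1.32 to 1.79 for IVF 4-cell embryos of prefix 15287, 1.51 to 1.65 for SCNT 5-7-cell embryos of 15243, 1.98 to 2.29 for SCNT 4-cell embryos of 15244, and 0.642 to 2.64 for the 2 IVF 13-16-cell embryos, and 0 lost regions called between the IVF 4-cell prefixes throughout. The score test without its exact bound called 1 lost region higher in SCNT than IVF 4-cell embryos and 0 in the other comparisons. With depth from commonly open regions the median log2 ratio of all regions moved to -0.41 for IVF 5-7-cell against 4-cell, -0.39 for SCNT 8-cell against 2-cell and 0.33 for SCNT against IVF 5-7-cell embryos, while the lost regions stood -0.67, -0.58 and 0.98 from it, against -0.65, -0.59 and 0.98. The IVF 13-16-cell mean of 1.64 was 0.642 without blastomeres lacking a block, where 1 embryo remained. Testing only regions with a call in 25% of the embryos took 50 lost regions (11.2%) as higher in SCNT than in IVF 5-7-cell embryos at an unadjusted p under 0.05, against 5.36% of all, and 14 (3.03%) as lower in IVF 5-7-cell than in 4-cell embryos, against 1.20% of all. SCNT comparisons within prefix 15244 other than 8-cell against 2-cell were not run, for too few embryos. No paired analysis was possible because the groups compared share no embryos and embryo numbers mark no pairing.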
